A study of Schizosaccharomyces pombe with 12 samples.

Results

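The response of set1Δ fission yeast to heat was taken as the difference between 2 RNA-seq libraries of cells moved to 37°C for 2 hours and 2 libraries of cells kept at 30°C. These are 4 of the 12 libraries analysed here, and their group was read from the genotype and temperature in the sample labels. The other 8 libraries, 2 each of wild-type and lsd1-ΔHMG cells at both temperatures, entered the same fit and served for comparison. In set1Δ the gene of the H3K4 methyltransferase was deleted, and lsd1-ΔHMG is a truncation of the demethylase Lsd1 that lacks its C-terminal HMG domain. The study lists set1Δ strains with auxotrophic markers and a ura4+ reporter at a centromere, but the sequenced strain and whether the 2 replicates are 1 clone were not given in the sources used here. The replicates are described as independently derived, and all libraries are from whole cells.

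Set1 is the catalytic subunit of COMPASS, the complex that places methyl groups on lysine 4 of histone H3 at transcribed genes. When fission yeast is warmed, the heat shock factor Hsf1 raises chaperone genes and the Sty1 kinase acts through the transcription factor Atf1 on a wider set of stress genes. In unstressed cells, genes near the ends of chromosomes I and II lie in subtelomeric chromatin, which is known for low transcription and for genes present in several near-identical copies.

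The set1 gene (SPCC306.04c) checked the labels. Its level was 14.4 and 14.3 CPM (the count scaled to the TMM-normalised library size) in set1Δ cells kept at 30°C, and 15.7 and 16.1 CPM in those heated. In the 8 other libraries it lay between 64.4 and 112 CPM. All 4 set1Δ libraries were therefore below every other library, although reads were still assigned to the gene. The 4 libraries held 29306221 to 32701161 counts, and replicates correlated at 0.9946 and 0.9966 on the log2 CPM scale. The TMM factors of the unheated libraries were 0.762 and 0.754, against 1.05 and 1.08 for the heated ones, which raises the normalised 30°C levels relative to unnormalised CPM. Calls required a log2 fold change of 1 or more in size together with an adjusted p below 0.05 (edgeR's quasi-likelihood test, Benjamini-Hochberg over the 6904 features tested).

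Heat moved a large part of the set1Δ transcriptome. Of 6904 features, 786 (11.4%) were called higher at 37°C and 1441 (20.9%) lower, 2227 (32.3%) in all. With 2 libraries a group, both 37°C libraries lay above both 30°C libraries for 44.3% of features and below them for 43.5%. The median log2 fold change of all features was 0.031. The median size of a call was 1.39 log2 units for rises and 1.57 for falls, and 57 features rose by more than 3 log2 units while 91 fell by more than 3. The balance of directions depended on the scaling, since upper-quartile factors gave 1093 higher and 1196 lower and moved the median to 0.19. Offsets that remove library trends with GC content and length gave 893 higher and 1112 lower. Called genes also differed in length. The median annotated length of protein-coding genes was 1914 bases among those called higher, 1208 among those called lower and 1774 among all tested, and the part of gene length in the falls was not tested.

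Chaperones were the clearest group of rises. Of 22 members of 3 chaperone lists, 14 were called higher and none lower, against 11.4% of all features called higher. The lists and members were chosen with earlier results of these data known, so these counts are a description.

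Among the small heat shock proteins and disaggregases, 4 of 6 members rose, with a median log2 fold change of 1.72 beside 0.031 for all features. For hsp16 (SPBC3E7.02c), a small heat shock protein that holds unfolding proteins, the levels were 830 and 727 CPM at 30°C and 15389 and 19021 CPM at 37°C. Both 37°C libraries lay far above both 30°C libraries, and hsp16 became the feature with the most counts in each 37°C library, at 1.62% and 2.05% of all counts. The rise was 22.1-fold (log2 fold change 4.47, SE 0.19, adjusted p = 6.2e-11). The mitochondrial disaggregase gene hsp78 went from 77.9 and 69.7 CPM to 523 and 568 CPM (log2 fold change 2.89, SE 0.11). The Hsp20-family gene hsp20 went from 144 and 133 CPM to 725 and 770 CPM (log2 fold change 2.43, SE 0.097). The cytosolic disaggregase gene hsp104 was just past the limit at a log2 fold change of 1.01 (43.8 and 44.1 CPM against 94.4 and 82.9 CPM). Its value ran from 0.73 to 0.99 in 6 of the other settings, without either 30°C library or replicate 1 at 37°C among them, and it was then not called. Not called were hsp9, the gene of a small stress protein, at 0.75, and hsf1, the heat shock factor gene, at 0.62. The hsp9 gene overlaps another gene on its own strand, so its counts are uncertain.

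Of the Hsp70, Hsp110 and Hsp40 genes, 5 of 9 members tested rose, with a median of 1.76. The cytosolic Hsp70 gene ssa1 was at 30.8 and 29 CPM at 30°C and 311 and 243 CPM at 37°C, a 9.25-fold rise (log2 fold change 3.21, SE 0.12, adjusted p = 3.5e-11). Its paralog ssa2 went from 312 and 303 CPM to 2126 and 1537 CPM (log2 fold change 2.58, SE 0.16). The paralogs resemble each other and ssa2 overlaps another gene, so the split of reads between them is uncertain. The Hsp110 gene pss1 reached a log2 fold change of 2.14, the Hsp40 gene mas5 2.19 and the mitochondrial Hsp70 gene ssc1 1.76. Members that were not called were psi1 (an Hsp40, 0.86), bip1 (the Hsp70 of the endoplasmic reticulum, 0.70), sks2 (a ribosome-associated Hsp70, 0.67) and mdj1 (a mitochondrial Hsp40, 0.20). Members called higher included cytosolic and mitochondrial chaperones, and bip1 was not among them.

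Among Hsp90 and its partners, 5 of 7 members were called higher, with a median of 1.69. The Hsp90 gene hsp90 went from 258 and 244 CPM to 2184 and 1601 CPM (log2 fold change 2.91, SE 0.15, adjusted p = 5.7e-10). The gene of the Hsp70-Hsp90 adaptor, sti1, went from 96.7 and 87.1 CPM to 958 and 744 CPM (log2 fold change 3.21, SE 0.12). The Hsp90 activator gene aha1 reached 2.49, the p23 gene wos2 1.69 and the kinase-specific co-chaperone gene cdc37, which overlaps a neighbour on its strand, 1.53. The co-chaperone gene cns1 had a log2 fold change of 0.59. The Sgt1-like gene git7 was lower at 37°C in both libraries, at 95.3 and 95.6 CPM against 126 and 132 CPM, but its log2 fold change of -0.44 was within the limit.

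**Figure D1:**
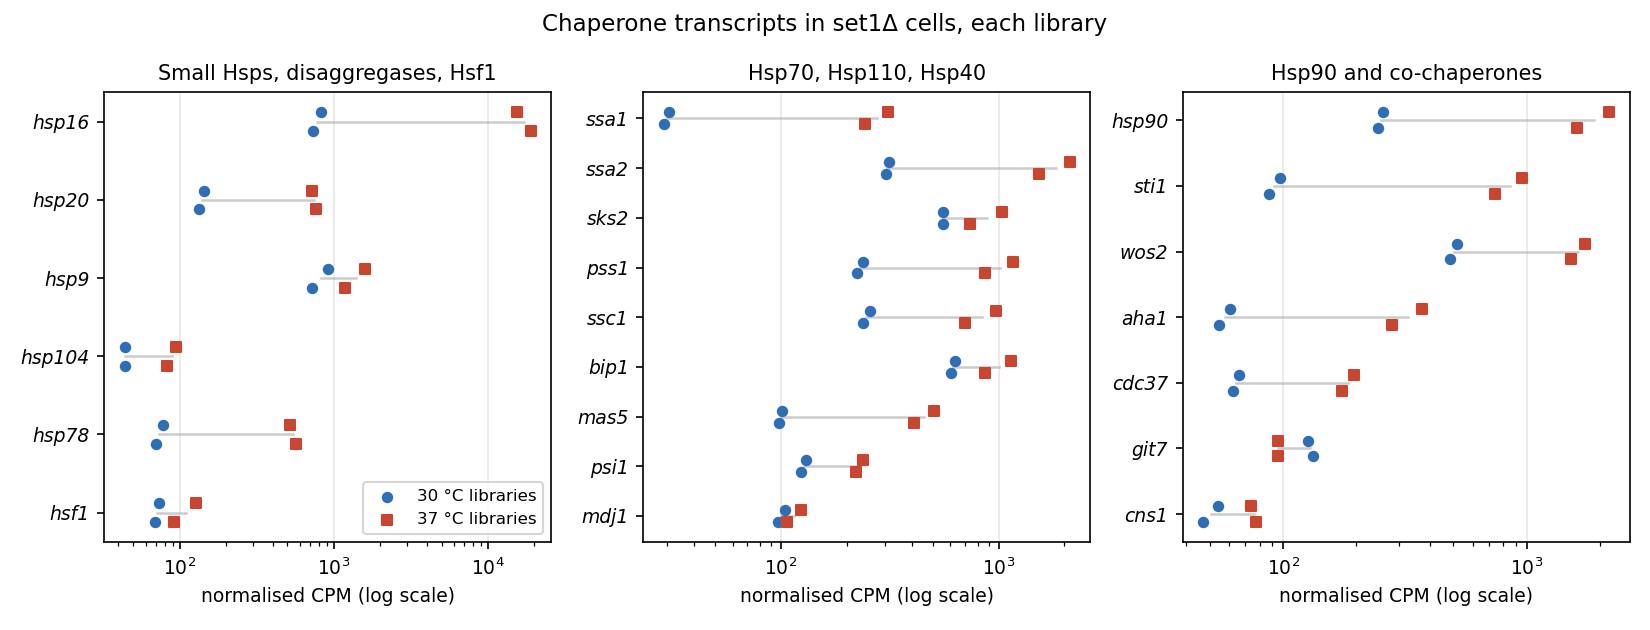
Normalised CPM (log axis) of the 22 chaperone genes in each set1Δ library, with circles for the 2 libraries at 30°C, squares for the 2 at 37°C and grey lines joining the means. The 37°C libraries lay above the 30°C libraries for 21 genes, by the most for hsp16 (830 and 727 against 15389 and 19021 CPM), and below them for git7. Over all features they lay above for 44.3%, and some of the 21 genes, such as mdj1 (log2 fold change 0.20), were not called.

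Promoters were read as the 250 bases before each annotated gene start in the RefSeq assembly ASM294v3, with genes joined by identifier, because Hsf1 binds heat shock elements made of facing GAA and TTC units. The motif searched was GAANNTTC or TTCNNGAA, each its own reverse complement. It was present in 849 of 5103 protein-coding promoters (16.6%), in 120 of 561 called higher (21.4%) and in 125 of 871 called lower (14.4%). Among promoters of genes that rose by at least 2 log2 units it was in 21 of 63 (33.3%), and among those that fell by at least 2 in 20 of 209 (9.57%). A run of 3 alternating units was in 21 of all promoters (0.412%), in 7 of those called higher and in 1 of those called lower. Among the chaperone lists the motif of 2 units stood before 11 of 14 genes called higher and 2 of 8 not called. The Atf1 element TGACGT, or ACGTCA on the other strand, was in 282 of all promoters (5.53%), 45 called higher (8.02%) and 52 called lower (5.97%). A match describes letters and not a bound site, and these shares were not tested.

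The 60 bases that hold the longest run of units are shown for 6 strongly risen genes, 5′ to 3′ on the gene's strand, with the GAA and TTC units in capitals. The stretches before ssa1, ssa2 and wis2 hold 3 units in a row and the others 2. Only genes with the motif could be shown, and many strong rises lacked it. It was absent before hsp78 and before mug14, nce103, hsp3104, fes1, meu25 and sro1, whose rises are given below.
hsp16: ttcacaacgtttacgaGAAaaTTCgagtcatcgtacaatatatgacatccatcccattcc
ssa1: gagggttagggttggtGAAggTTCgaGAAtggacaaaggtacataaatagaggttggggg
ssa2: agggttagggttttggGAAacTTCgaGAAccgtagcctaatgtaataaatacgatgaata
hsp90: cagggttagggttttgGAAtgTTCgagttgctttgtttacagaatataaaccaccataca
sti1: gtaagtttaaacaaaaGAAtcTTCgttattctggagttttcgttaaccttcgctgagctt
wis2: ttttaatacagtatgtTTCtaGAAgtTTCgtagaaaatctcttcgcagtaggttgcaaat
In ASM294v3 these stretches lie at II:2661042-2661101 on the minus strand for hsp16, I:2297979-2298038 (minus) for ssa1, III:2056968-2057027 (plus) for ssa2, I:3891153-3891212 (minus) for hsp90, III:1263625-1263684 (minus) for sti1 and I:4931195-4931254 (minus) for wis2. All are upstream of the annotated gene start, by 14 bases at the nearest base (hsp90) and by 109 at the farthest (hsp16 and sti1).

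Beyond the chaperone lists, the 10 largest rises among genes with a symbol and a mean of at least 10 CPM held further folding factors and metabolic genes. The cyclophilin gene wis2 (SPAC1B3.03c), a prolyl isomerase that works with Hsp90, was at 83.5 and 80.9 CPM at 30°C and 1521 and 1480 CPM at 37°C (log2 fold change 4.19, SE 0.098, adjusted p = 5.3e-13). The Hsp70 nucleotide exchange factor gene fes1 went from 75 and 69.7 CPM to 700 and 764 CPM (log2 fold change 3.34). The ThiJ-domain gene hsp3104, annotated as a glyoxalase, rose by a log2 fold change of 3.53. Both fes1 and hsp3104 overlap another gene on their own strand, so their values are uncertain.

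The largest rise of these 10 was that of mug14 (SPBC359.06), an adducin-related gene, at 73.8 and 72.3 CPM at 30°C and 1815 and 2218 CPM at 37°C (log2 fold change 4.79, SE 0.16). It also overlaps a neighbour on its strand. The putative carbonic anhydrase gene nce103 went from 107 and 105 CPM to 1286 and 1166 CPM (log2 fold change 3.53), and the alcohol dehydrogenase gene adh8 from 52 and 40.1 CPM to 486 and 552 CPM (log2 fold change 3.49). The genes meu25 (3.27) and sro1 (3.25) completed the group. Selection of these 10 genes also required a call and no overlap between the 30°C and 37°C libraries, so their separation was set by the choice.

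**Figure D2:**
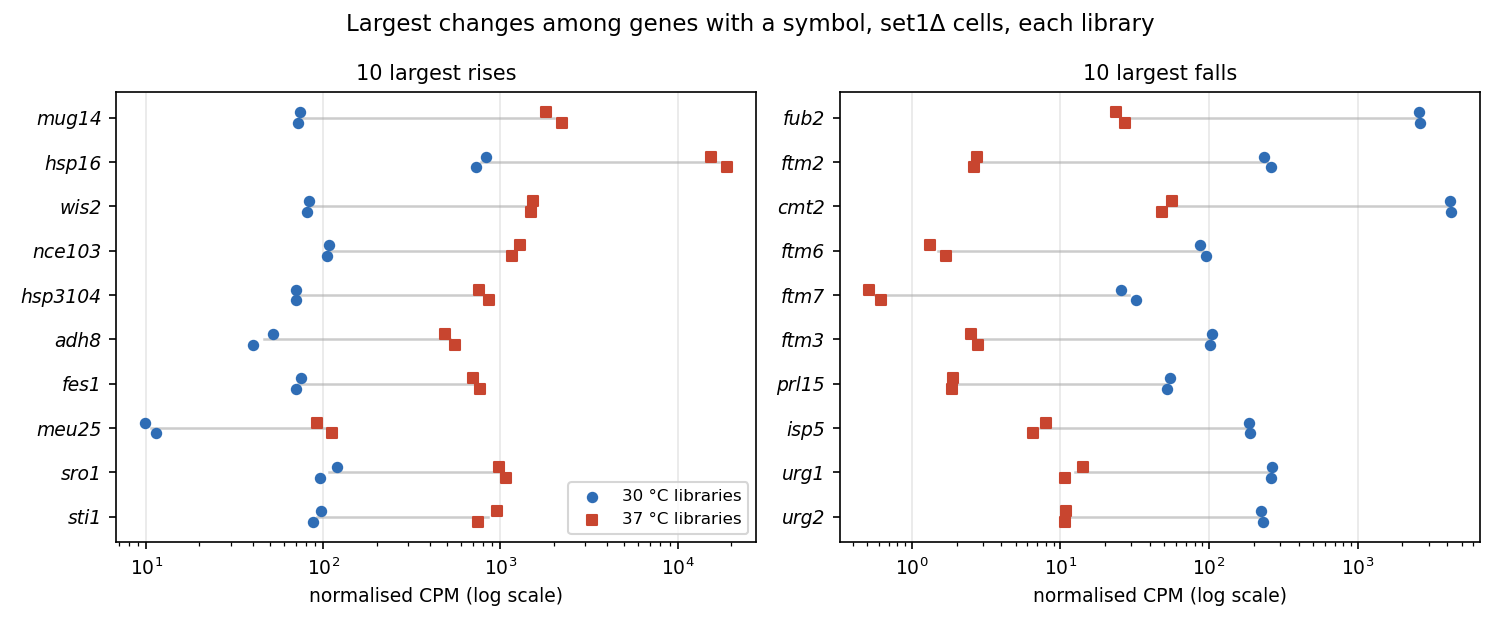
Normalised CPM (log axis) in each set1Δ library of the 10 genes with a symbol that rose most and the 10 that fell most, with circles for 30°C, squares for 37°C and grey lines joining the means. Only called genes whose 2 temperatures did not overlap were eligible. Levels went from 73.8 and 72.3 to 1815 and 2218 CPM for mug14 and from 2586 and 2634 to 23.7 and 27.4 CPM for fub2.

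Under the same limits the largest falls were deeper than the largest rises. The gene fub2 (SPBP4G3.03), of the PI31 proteasome regulator family, was at 2586 and 2634 CPM at 30°C and 23.7 and 27.4 CPM at 37°C, 102-fold lower (log2 fold change -6.67, SE 0.12, adjusted p = 8.3e-14). The catechol O-methyltransferase gene cmt2 went from 4197 and 4223 CPM to 56.1 and 48.2 CPM (log2 fold change -6.34, SE 0.14). The non-coding RNA prl15, which lies antisense to another gene and is uncertain because the counting was not stated to use strand, fell from 54.4 and 51.8 CPM to 1.89 and 1.87 CPM (log2 fold change -4.82). Genes of nutrient uptake and uracil metabolism stood among the rest. The amino acid transporter gene isp5 had a log2 fold change of -4.69, and the uracil-related genes urg1, for a GTP cyclohydrolase, and urg2, for a putative uracil phosphoribosyltransferase, each had -4.40.

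Several of the deepest falls were of genes near chromosome ends, and a grouping by distance from the ends of chromosomes I and II was added after these values were seen. Of 81 features tested within 50 kb of an end in ASM294v3, 67 (82.7%) were called lower and 4 higher, with a median log2 fold change of -2.64. Between 50 and 100 kb, 50 of 98 (51%) were lower, and farther in 1030 of 5269 (19.5%). The ends of chromosome III, where ribosomal DNA lies, showed 24 of 49 features lower within 50 kb, with a median of -0.91. Of the 88 features with a position that fell by at least 3 log2 units, 35 lay within 50 kb of an end of I or II and 49 within 100 kb.

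The deepest single fall was that of SPAC977.18, an uncharacterized gene on chromosome I, at 5692 and 5748 CPM at 30°C and 13.3 and 14.5 CPM at 37°C (log2 fold change -8.68). The uncharacterized gene SPBPB2B2.18 on chromosome II went from 7740 and 8160 CPM to 23.6 and 22.7 CPM (log2 fold change -8.42). Both have no symbol and were named here after their values were seen. In wild-type the log2 fold change of these genes was -2.67 for SPAC977.18 and -2.54 for SPBPB2B2.18, so the fall in set1Δ was the deeper, and both differences from wild-type were called. The wild-type levels of SPAC977.18 were 917 and 842 CPM at 30°C and 134 and 142 CPM at 37°C. For SPBPB2B2.18 they were 1243 and 1145 CPM against 198 and 213 CPM. For both genes set1Δ thus lay above wild-type at 30°C and below it at 37°C.

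The ftm family, which encodes proteins with transmembrane helices, lies within 50 kb of these ends, and all 7 members fell, from -3.23 for ftm4 to -6.51 for ftm2. For ftm2 the levels were 233 and 260 CPM at 30°C and 2.76 and 2.63 CPM at 37°C. For ftm6 they were 87 and 95.2 CPM against 1.32 and 1.7 CPM. These genes share sequence, and in 61 of the 81 features near the ends more than 50% of all 100-base words occurred more than once in the assembly, so the values of single copies are uncertain. Of the 17 features without any repeated word, 13 were lower and 2 higher, with a median of -2.59. The count lower within 50 kb was 64 with the GC and length offsets and 65 with upper-quartile factors.

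**Figure D3:**
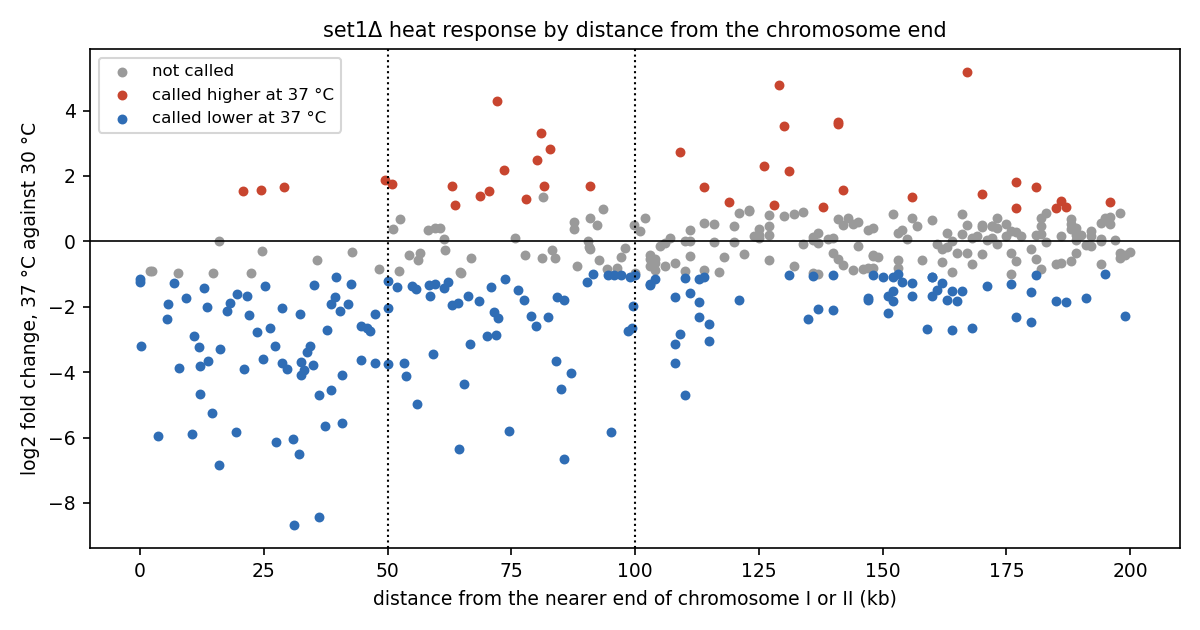
Log2 fold change at 37°C against 30°C in set1Δ for features within 200 kb of the nearer end of chromosome I or II, against distance in kb, with 1 point per feature coloured by its call and dotted lines at 50 and 100 kb. Within 50 kb 67 of 81 points were called lower, and between 50 and 100 kb 50 of 98.

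The Sty1-Atf1 list, the wider stress program, had 4 of 15 members higher, none lower and a median of 0.35. The rises were those of tps1, which makes trehalose 6-phosphate and overlaps a neighbour on its strand (93.6 and 85.4 CPM against 398 and 307 CPM, log2 fold change 1.98), ctt1 (catalase, 1.44), gpd1 (glycerol 3-phosphate dehydrogenase, 1.32) and ish1 (1.03), of which gpd1 and ish1 also overlap a neighbour. Glutathione peroxidase gene gpx1, with the most CPM on the list, had a log2 fold change of 0.095. In the redox list 3 of 16 rose and 1 fell. The mitochondrial superoxide dismutase gene sod2 went from 262 and 264 CPM to 1081 and 1079 CPM (2.04), the peroxiredoxin gene tpx1, which overlaps a neighbour, had 1.95 and the thioredoxin gene trx2 had -1.57. The call of trx2 was lost with the GC and length offsets, at -0.88. The chaperonin list had 2 of 10 higher, the mitochondrial pair hsp10 (1.75) and mcp60 (1.41, overlapping a neighbour), while its 8 cytosolic ring members were not called.

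Of 36 ubiquitin and proteasome genes, 13 were lower and 3 higher, with a median of 0.16, beside 20.9% lower and 11.4% higher over all features. The ubiquitin-ribosomal fusion genes ubi3 and ubi5 fell, and ubi1 (-0.034) and ubi2 (-0.18) were not called. For ubi3 the levels were 27494 and 27829 CPM at 30°C and 5857 and 6114 CPM at 37°C (log2 fold change -2.21, SE 0.13), and for ubi5 12971 and 12950 CPM against 2532 and 2460 CPM (-2.38). The gene rpn11, for the deubiquitinating subunit of the regulatory particle, rose to a log2 fold change of 1.61, with a neighbour on its strand, and the proteasome ATPase genes rpt3 (1.5) and rpt1 (1.21) rose too. The median gene length was 1285 bases among the 13 lower and 1662 among the 3 higher.

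Ribosomal protein genes changed in few members. In the small subunit list 8 of 55 were lower, none higher and the median was 0.22. In the large subunit list 9 of 81 were lower, none higher and the median was 0.18. Both shares of falls lay under the 20.9% of all features. For rps21 the levels were 8908 and 11645 CPM at 30°C and 2269 and 1702 CPM at 37°C (log2 fold change -2.37, SE 0.47), and for rps2801, whose paralog rps2802 shares its protein, 5113 and 6652 CPM against 1060 and 844 CPM (-2.63). The near-identical pair rpl4101 (-2.31) and rpl4102 (-2.40) cannot be separated with certainty. The lower genes of both lists were short, with a median of 536 and 516 bases beside 689 and 742 for those not called. Leaving out replicate 2 at 30°C or at 37°C left 4 large subunit genes lower.

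Nucleolar ribosome biogenesis genes went the other way, with 10 of 33 higher, 3 lower and a median of 0.68. The U3 snoRNP gene utp20 went from 38.2 and 35.3 CPM to 148 and 118 CPM (log2 fold change 1.85, SE 0.14), and the GTPase gene nog1 had 1.65. The box H/ACA protein gene nhp2 fell from 2774 and 2889 CPM to 482 and 540 CPM (-2.47), and nop10 had -2.13. With the offsets for GC content and length 4 members were higher and 2 lower. The genes called higher were long, with a median of 2800 bases, and those called lower short, with 1104, and whether length played a part was not tested.

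Small nucleolar RNAs were mostly lower, with 46 of 63 lower, 1 higher and a median of -1.68. The rise was snoR54b (log2 fold change 3.14), at 0.401 and 0.453 CPM against 3.37 and 4.22 CPM. The deepest fall, that of snR10, was also at a low level, at 0.446 and 0.588 CPM against 0.0321 and 0.0567 CPM. With the GC and length offsets 26 were lower and 5 higher. The paper names the libraries as mRNA libraries, and how fully they hold snoRNAs was not tested. Over the 1393 long and other non-coding RNAs 193 were higher and 403 lower. Of the 840 that lie antisense to a protein-coding gene, 133 were higher and 223 lower. Over all features 11.4% were higher and 20.9% lower. Whether these counts used strand was not stated, so the values of antisense RNAs and their partners are uncertain.

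**Figure D4:**
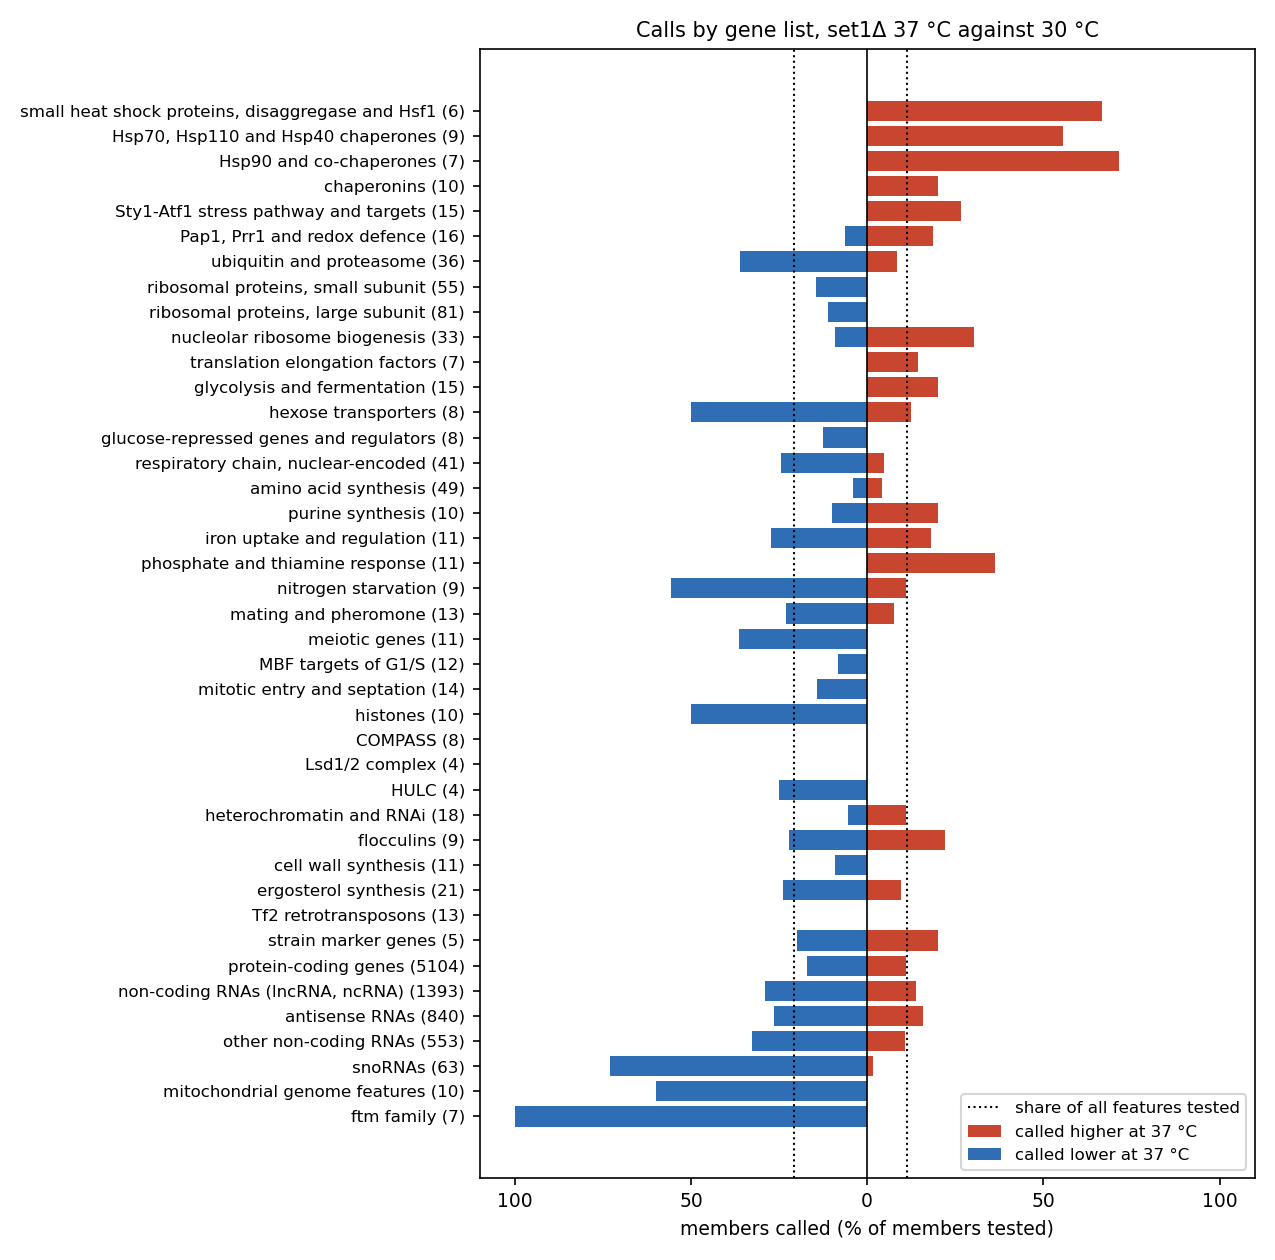
Share of the members of each list called higher (right) and lower (left) at 37°C in set1Δ, as a percentage of the members tested, whose number stands in brackets, with dotted lines at the shares of all features, 11.4% higher and 20.9% lower. The 3 chaperone lists reach farthest to the right, with 4 of 6, 5 of 9 and 5 of 7 members, and the ftm family (7 of 7) and snoRNAs (46 of 63) farthest to the left.

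Of 8 hexose transporter genes 4 were lower and 1 higher, with a median of -0.95. The transporter gene ght7, near an end of chromosome II, had a log2 fold change of -4.54 (10.2 and 8.15 CPM against 0.45 and 0.34 CPM), and ght3, for a gluconate symporter, rose from 6.95 and 8.24 CPM to 46.8 and 59.8 CPM (2.81). In the nitrogen starvation list 5 of 9 were lower and 1 higher, with a median of -1.14. The oligopeptide transporter gene isp4 fell from 128 and 128 CPM to 27.6 and 25 CPM (-2.29), and the meiotic regulator gene mei2 rose from 13.2 and 12 CPM to 54.7 and 60.7 CPM (2.19).

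The phosphate and thiamine list had 4 of 11 higher and none lower, led by the phosphate transporter gene pho842 at 64.8 and 66.2 CPM against 318 and 277 CPM (log2 fold change 2.18). Without replicate 1 at 37°C, or with the offsets, 1 member was higher. The iron list had 2 higher and 3 lower of 11, from fip1 (an iron permease, 1.65) to frp1 (a ferric reductase, -1.66). The glucose-repressed list had 1 of 8 lower, the invertase gene inv1 (-1.38, overlapping a neighbour).

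In central metabolism, glycolysis and fermentation had 3 of 15 genes higher and none lower, with a median of 0.45. The glyceraldehyde 3-phosphate dehydrogenase gene gpd3 went from 299 and 252 CPM to 1262 and 852 CPM (log2 fold change 1.94), and pgk1 (1.21) and pfk1 (1.05) were near the limit. Without replicate 1 at 37°C 1 of these was called. The nuclear-encoded respiratory chain had 10 of 41 lower and 2 higher, from atp19, for an ATP synthase subunit (-2.14), to atp12, for an assembly chaperone of the same enzyme (1.26). The 10 lower genes had a median length of 801 bases beside 1185 for those not called. Features of the mitochondrial genome were lower in 6 of 10, with a median of -1.17, beside 20.9% of all features lower. Their levels were low, together 25.6 and 28.9 CPM at 30°C and 12.4 and 12.3 CPM at 37°C. In wild-type 5 of the 10 were lower (median -1.04) and in lsd1-ΔHMG 5 (median -1.20).

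Amino acid synthesis had 2 higher and 2 lower of 49, from leu3 (1.04) to met8 (-1.61), and purine synthesis 2 higher and 1 lower of 10, from ade6 (1.18) to ade5 (-1.05). Neither leu3 nor ade6 was called without replicate 1 at 37°C, at 0.77 and 0.95. Ergosterol synthesis had 5 lower and 2 higher of 21. The sterol isomerase gene erg2 fell from 2018 and 2123 CPM to 375 and 418 CPM (log2 fold change -2.38) and the sterol desaturase gene erg32 rose from 46.1 and 46.8 CPM to 130 and 134 CPM (1.51). Of the elongation factor genes 1 of 7 was higher, tef103 (1.45), which has close paralogs.

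No gene of the histone and cell cycle lists was called higher. In the mitotic and MBF lists the share lower was under the 20.9% of all features. In the histone list 5 of 10 were lower and none higher, with a median of -0.91. For the histone H4 genes the levels were 3102 and 3273 CPM against 610 and 699 CPM for hhf1 (log2 fold change -2.28) and 1805 and 1839 CPM against 291 and 329 CPM for hhf3 (-2.55), and these copies encode the same protein. Of 14 genes of mitotic entry and septation 2 were lower, of which cdc2, the cyclin-dependent kinase gene, went from 881 and 919 CPM to 263 and 294 CPM (-1.69). Of 12 MBF targets 1 was lower, the corepressor gene yox1 (-1.07). Meiotic genes had 4 of 11 lower, led by rec10, a recombination protein gene (-2.79), and the mating list 3 lower and 1 higher of 13, from mfm2, a pheromone precursor gene (-2.16), to the MAP kinase gene spk1 (1.39).

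The genes of chromatin writers and erasers were mostly not called. None of the 8 COMPASS genes, the 4 Lsd1/2 complex genes and the 13 Tf2 retrotransposons was called. The levels of lsd1 were 56.9 and 53 CPM at 30°C and 69.3 and 58.9 CPM at 37°C (log2 fold change 0.22, SE 0.098, adjusted p = 0.053), those of lsd2 38.6 and 38.4 CPM against 59 and 57.4 CPM (0.60, SE 0.082, adjusted p = 1.3e-05), and those of clr4, the H3K9 methyltransferase gene, 17 and 14.4 CPM against 25.8 and 22.2 CPM (0.61, SE 0.13). For these 3 genes both 37°C libraries lay above both 30°C libraries, as for 44.3% of all features, with a change under the limit. Of the 4 HULC genes, for the complex that ubiquitinates histone H2B, brl1 fell from 403 and 403 CPM to 101 and 118 CPM (log2 fold change -1.88). In the heterochromatin and RNAi list 2 of 18 rose and 1 fell. The cullin gene cul4 of the Clr4 complex went from 26.6 and 23 CPM to 90.8 and 94.5 CPM (1.90), tas3 of the RNAi effector complex had 1.35, and the anti-silencing gene epe1 went from 166 and 169 CPM to 68.9 and 60.5 CPM (-1.37).

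Surface genes were mixed. The flocculin list had 2 higher and 2 lower of 9, from pfl3 (1.86) to pfl9 (-2.05), and in the cell wall list 1 of 11 was lower, the glucan synthase gene bgs1 (289 and 299 CPM against 139 and 108 CPM, log2 fold change -1.25). Of 5 strain marker genes ura4 fell (-1.88) and ade6 rose.

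The comparison with the other strains was made on the difference of its response from that of each other strain. Both tests use the same set1Δ libraries and are not independent. In wild-type, hsp16 was at 39399 and 36204 CPM in the libraries labelled 30°C and at 4535 and 5795 CPM in those labelled 37°C. From the former to the latter 11 of 15 Sty1-Atf1 genes (median log2 fold change -1.44) and 13 of 15 glycolysis genes (median -2.33) were called lower, while 3 of 7 Hsp90 genes were higher, against 15.9% lower and 5.55% higher over all features. The labels were used as given, whether they hold for these libraries was not tested, and every comparison with wild-type rests on them. The response differed from wild-type for 2538 features (36.8%), 1301 higher (18.8%) and 1237 lower (17.9%). It differed from lsd1-ΔHMG for 1373 (19.9%), 518 higher (7.50%) and 855 lower (12.4%). With relative log expression factors the lsd1-ΔHMG split was 662 higher and 654 lower, and with the GC and length offsets 571 and 560.

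Of the 786 features called higher in set1Δ, 416 (52.9%) had a response called above that of wild-type, 258 (32.8%) above that of lsd1-ΔHMG and 227 (28.9%) above both. Of the 1441 called lower, 956 (66.3%) were below wild-type, 690 (47.9%) below lsd1-ΔHMG and 564 (39.1%) below both. Called in all 3 strains were 98 of the rises (12.5%) and 159 of the falls (11%). On its own, the lsd1-ΔHMG response had 4.48% of all features higher and 10.4% lower. Of the 786 rises in set1Δ, 102 were called lower in wild-type and 15 in lsd1-ΔHMG.

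Rises of the chaperone lists were not particular to set1Δ. On its own, the lsd1-ΔHMG response had 3 of 6, 5 of 9 and 5 of 7 members of the 3 lists higher and none lower. In wild-type 0, 2 and 3 members were higher and 3, 3 and 0 lower. The size of the response differed between strains gene by gene. For hsp16 the log2 fold change was 4.47 in set1Δ, 1.03 in lsd1-ΔHMG and -2.87 in wild-type, and for ssa1 it was 3.21, 1.2 and -1.75. The difference from lsd1-ΔHMG was 3.44 for hsp16 (adjusted p = 7.1e-08) and 2.01 for ssa1 (adjusted p = 2.3e-07). For the Hsp110 gene pss1 the response was 2.14 in set1Δ, 2.22 in lsd1-ΔHMG and 2.02 in wild-type, and neither difference was called (0.12 with SE 0.17 from wild-type, -0.084 with SE 0.17 from lsd1-ΔHMG). For wos2 the differences were 0.40 and -0.13. Over the 22 chaperone genes, the response was above wild-type for 14 and below it for 1 (mdj1), and above lsd1-ΔHMG for 7 and below it for 1 (mdj1). Over all features the shares were 18.8% above and 17.9% below wild-type, and 7.5% above and 12.4% below lsd1-ΔHMG.

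Among genes with a symbol and at least 10 CPM, those whose rise exceeded both other strains by the most were mug14, omt3, lsd90, adh8 and hsp16, taking the smaller of the 2 differences. For mug14 the wild-type levels were 14866 and 13233 CPM at 30°C and 477 and 474 CPM at 37°C, the reverse of the order in set1Δ. For adh8 the levels were 653 and 571 CPM at 30°C and 94.6 and 92.8 CPM at 37°C in wild-type, and 102 and 92.6 CPM against 89.8 and 103 CPM in lsd1-ΔHMG. The set1Δ libraries at 30°C held the lowest adh8 levels of the 12, at 52 and 40.1 CPM. The long non-coding RNA omt3, annotated as meiosis-specific, was at 557 and 537 CPM at 30°C and 2422 and 2850 CPM at 37°C in set1Δ, and was lower at 37°C in both other strains.

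Under the same limits, the falls that exceeded both other strains by the most were those of isp5, ftm2, prl15, ftm6 and put4. Without a symbol, SPAC977.18 (-6.01 from wild-type and -5.44 from lsd1-ΔHMG) and SPBPB2B2.18 (-5.89 and -5.37) differed by more than isp5 (-5.46 and -5.06). For isp5 the set1Δ levels were 186 and 188 CPM at 30°C and 8 and 6.57 CPM at 37°C, and the 8 other libraries lay between 4.13 and 12.6 CPM. For the proline transporter gene put4 they were 106 and 103 CPM against 9.02 and 7.62 CPM, with 16.9 to 23.9 CPM in the other 8 libraries. For prl15 the 8 other libraries lay between 0.96 and 2.46 CPM. In isp5 and prl15 the 37°C level of set1Δ lay within the range of the other strains and in put4 below it, and in isp5, prl15 and put4 the 2 set1Δ libraries at 30°C were the highest of the 12. For ftm2 and ftm6 both other strains also fell, by -1.96 and -1.91 in wild-type and -1.69 and -0.98 in lsd1-ΔHMG on the log2 scale.

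**Figure D5:**
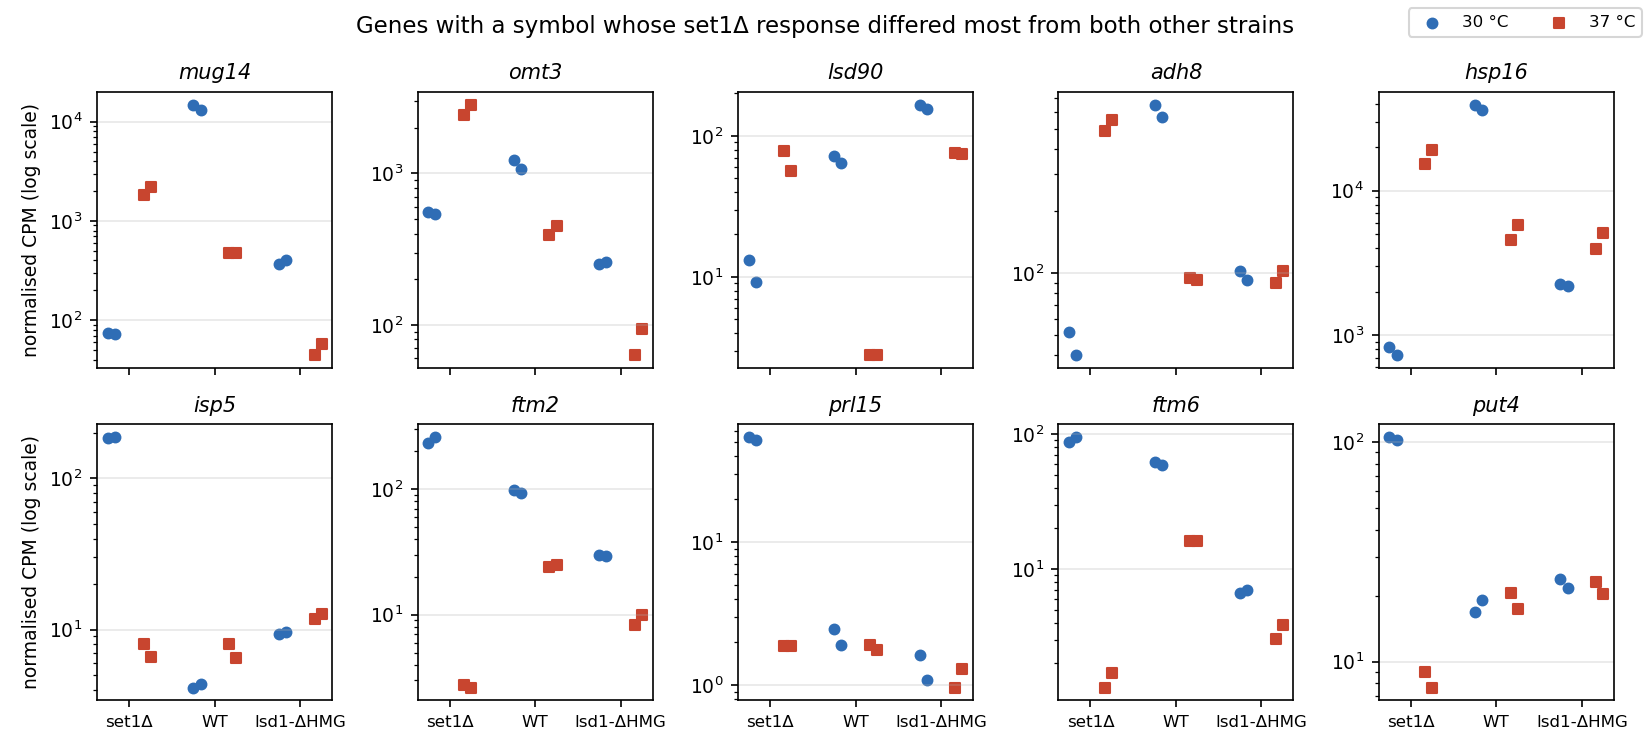
Normalised CPM (log axes, 1 panel per gene) in each of the 12 libraries for the 5 genes with the most positive and the 5 with the most negative difference, among genes with a symbol and at least 10 CPM, of the set1Δ response from both other strains, with circles for 30°C and squares for 37°C. In the upper row set1Δ rises (hsp16 from 830 and 727 to 15389 and 19021 CPM), and in the lower row it falls (isp5 from 186 and 188 to 8 and 6.57 CPM).

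The chromosome ends differed between strains as well. Within 50 kb of the ends of chromosomes I and II, 41 of the 81 features were lower in wild-type (median log2 fold change -1.07) and 40 in lsd1-ΔHMG (median -0.98), beside 67 in set1Δ. The set1Δ response was called below that of wild-type for 54 of the 81 (66.7%) and above it for 4. It was called below that of lsd1-ΔHMG for 61 (75.3%) and above it for 3. Of the 17 features without any repeated word, 10 were below wild-type and 4 above, and 11 were below lsd1-ΔHMG and 2 above. Between 50 and 100 kb the set1Δ response was below wild-type for 34.7% of features and above it for 31.6%. It was below lsd1-ΔHMG there for 38.8% and above it for 14.3%. Farther than 100 kb from the ends the shares below were 17.1% and 11.3%, and those above 18% and 7.12%. Of the 63 snoRNAs, the set1Δ response was called below wild-type for 42 and below lsd1-ΔHMG for 12, beside 17.9% and 12.4% of all features. On its own, the lsd1-ΔHMG response had 32 of the 63 lower and 1 higher. The wild-type response had 4 lower and 7 higher.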

How the data were processed

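RNA of 12 whole-cell fission yeast cultures was sequenced as strand-specific mRNA libraries in 150 bp pairs. The authors trimmed reads with Trimmomatic 0.39, aligned them to ASM294v2 with STAR and deposited expected counts per gene from featureCounts with fractional assignment (versions of these not given in the sources used here), without normalization. Their methods name a selection of reads by strand with SAMtools for a stranded analysis, and whether it applies to these counts was not stated. Of 34 value columns 12 were used and 22 were not. Counts were rounded to whole numbers. Totals ran from 27642384 to 34843653 per library, and 2 libraries a group limit the precision.

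Of 7268 features, 6846 (94.2%) matched RefSeq ASM294v3 by identifier, which gave names, lengths, overlaps, promoters and distances from chromosome ends. All 12 libraries were fitted with a mean per group in edgeR (TMM, filterByExpr, robust quasi-likelihood test, Benjamini-Hochberg), and limma-voom, DESeq2, other scalings, filters, offsets and samples were alternatives. Standard errors are the log2 fold change over the square root of F. On simulated data for the set1Δ heat response, with 200 changed genes among 6866 features, all 200 were recovered and 0% of calls were false. The set1Δ response itself had 2227 calls, and the share of false calls among those was not tested.

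Named genes were set1, lsd1, lsd2 and clr4, the chaperone lists, the 10 largest rises and falls with a symbol and at least 10 CPM, the extremes and most abundant member of each other list, and the 5 strongest differences from both strains. The largest rises and falls were also required to be called and to show no overlap between temperatures. The members and lists were chosen with earlier results of these data known. The ftm, snoRNA and mitochondrial lists, the grouping by chromosome end, the 3-unit motif and the length summaries were added after values were seen, and members such as nog1, nop10, pgk1, pfk1, ubi1, ubi2, snR10 and snoR54b were named after their values were seen. Replicate numbers do not pair the set1Δ samples (correlation of deviations 0.0894). The same correlation was -0.00587 in wild-type and 0.332 in lsd1-ΔHMG, and its source in lsd1-ΔHMG was not tested.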

Additional observations from a re-analysis of the deposited data

Results flagged for a closer look

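The response of set1Δ to heat differed from that of another strain under the same contrast, by a test of the difference itself. It differed from the wild-type response for 2538 features and from the lsd1-ΔHMG response for 1373. Among genes with a symbol and at least 10 CPM, for the 5 with the most positive differences, the log2 difference from wild-type and from lsd1-ΔHMG was 9.67 and 7.71 for mug14, 3.72 and 3.99 for omt3, 7.19 and 3.69 for lsd90, 6.2 and 3.5 for adh8, and 7.34 and 3.44 for hsp16. For the 5 with the most negative differences under the same limits it was -5.46 and -5.06 for isp5, -4.55 and -4.82 for ftm2, -4.56 and -4.52 for prl15, -4.0 and -4.92 for ftm6, and -3.72 and -3.58 for put4. Both comparisons share the set1Δ libraries, and those with wild-type rest on libraries in which hsp16 was lower under the 37°C label than under the 30°C label.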

How the results depend on the processing

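The limits were the main choice that moved the counts. With no fold limit the set1Δ response had 5415 calls (2726 higher, 2689 lower), the difference from wild-type 5003 (2598 and 2405) and that from lsd1-ΔHMG 3949 (1733 and 2216). With a log2 limit of 2 they were 544 (151 and 393), 799 (498 and 301) and 215 (103 and 112), and with an adjusted p of at most 0.0001 as well, 500 (140 and 360), 680 (423 and 257) and 171 (75 and 96). With the GC and length offsets 560 features were below the lsd1-ΔHMG response, against 855. Which features were called moved more than the totals. These offsets kept 1645 of the 2227 main calls of the set1Δ response in the same direction. They kept 1816 of the 2538 for the difference from wild-type and 911 of the 1373 for that from lsd1-ΔHMG. Other scalings, tests, filters and samples kept each count within 1.5 times. Leaving out each library in turn gave 2132 to 2311 calls (708 to 876 higher, 1424 to 1532 lower), 2464 to 2601 for the difference from wild-type (1086 to 1357 higher, 1186 to 1446 lower) and 1214 to 1483 for that from lsd1-ΔHMG (487 to 571 higher, 710 to 942 lower). With the replicate block there were 2229, 2549 and 1393 calls. Replicate numbers mark no shared culture or day in the labels. Signs changed for lsd1 (-0.017), mdj1 (-0.093) and ssp2 (-0.046) with the offsets none of them called. Leaving out a set1Δ library gave -0.0085 to 0.2 for ssp2, the lowest without replicate 1 at 37°C. The cause was not tested.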
